A study of Mus musculus with 2 samples.

Results

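Interferon-stimulated genes were followed across the cell types of the mouse mitral valve in a pair of single-cell libraries. The 39 members were chosen by name, as 1 ligand, interferon beta, and 38 genes that interferons are known to induce, and the rule used no measured value. Of these, 37 were found by symbol among the 32285 features of the matrices, and Mx1 and Mx2 matched no row and were not analysed here. Levels were described by cell type and genotype. The WT library came from Fbn1+/+ littermates. The mgR library came from mice homozygous for the hypomorphic mgR allele of Fbn1, in which a neomycin cassette lies in an intron and fibrillin-1, the main protein of extracellular microfibrils, is made in reduced amount. Both groups were 12 weeks old on a C57BL/6J background, and their leaflets were digested with collagenase A and elastase before viable cells were sorted. There was 1 library per genotype. A number of animals is stated for this comparison in the study, but not whether they were pooled, and the matrices do not tie cells to animals. No difference below has a replicate check, no test was made, and the intervals in parentheses are 95% intervals of counting error only.

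Type I interferons can be secreted when cells sense foreign or misplaced nucleic acid. Type I interferons, such as interferon beta, signal through Ifnar1 and Ifnar2 to a complex with Stat2 and Irf9 that binds the interferon-stimulated response element (ISRE). Interferon gamma, the type II interferon made by lymphocytes, signals through Ifngr1 and Ifngr2 to the gamma-activated site (GAS) of its target genes. Many antiviral genes respond mainly to type I signals, while Cxcl9 and several guanylate-binding proteins are classical targets of interferon gamma. In tissue macrophages a low tonic level of these genes is common.

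The promoters of the members are shown first. The choice by name read no sequence, but it took genes known to be induced by interferons, which act through the ISRE and the GAS. A high share of matches therefore follows from the choice and is not support for it. A RefSeq promoter window on GRCm38.p6, from 250 bases before to 50 bases after the start, was held for 33 of the member genes. The ISRE core, GAAANNGAAA on either strand, occurred in 19 of these 33 (57.6%, 39.2 to 74.5), against 3.99% of 27025 genes in the table. The GAS core, TTCNNNGAA on either strand, occurred in 9 of the 33 (27.3%, 13.3 to 45.5), against 9.55% of genes. A match of letters is not a bound site. Promoter stretches of 6 genes that the results turn on are printed 5′ to 3′ on the strand of the gene, with the matching cores in capitals, and 1 without a match is printed for contrast.
Isg15, chr4:156200837-156200946 (minus strand), 3 overlapping ISRE cores, the farthest beginning 78 bases before the start: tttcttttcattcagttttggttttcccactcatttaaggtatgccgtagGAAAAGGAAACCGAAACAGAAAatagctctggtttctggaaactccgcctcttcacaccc
Ifit1, chr19:34640735-34640844 (plus strand), 2 ISRE cores, 104 and 85 bases before the start: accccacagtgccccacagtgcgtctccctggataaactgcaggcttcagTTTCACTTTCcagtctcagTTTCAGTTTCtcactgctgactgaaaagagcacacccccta
Rsad2, chr12:26456513-26456622 (minus strand), 1 ISRE core, 120 bases before the start: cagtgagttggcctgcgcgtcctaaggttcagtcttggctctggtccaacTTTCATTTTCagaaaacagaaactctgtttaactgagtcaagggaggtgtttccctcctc
Cxcl10, chr5:92349043-92349139 (minus strand), 1 ISRE core, 213 bases before the start: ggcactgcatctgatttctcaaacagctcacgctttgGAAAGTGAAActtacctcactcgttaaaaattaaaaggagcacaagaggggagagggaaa
Gbp2, chr3:142620594-142620623 (plus strand), 1 ISRE core, 59 bases before the start: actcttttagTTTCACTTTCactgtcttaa
Irf1, chr11:53769874-53769982 (plus strand), 1 GAS core, 90 bases before the start: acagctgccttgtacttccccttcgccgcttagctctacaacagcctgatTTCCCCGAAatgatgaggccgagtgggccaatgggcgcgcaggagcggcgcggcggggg
Cxcl9, chr5:92328150-92328259 (minus strand), no core of either kind in its window: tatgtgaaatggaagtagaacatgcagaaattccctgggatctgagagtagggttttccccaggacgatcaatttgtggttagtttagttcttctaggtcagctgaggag
By role, the ISRE core was found in both sensors with a window (Ifih1 and Ddx58), in 8 of 16 antiviral effectors, in 6 of 7 GTPases, in Isg15, in Cxcl10 and in Stat2. Ifnb1, Irf7 and Cxcl9 held neither core in the windows searched, which says nothing about sites elsewhere.

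The WT library held 5381844 UMIs (unique molecular identifiers, 1 per captured RNA molecule) in 1104 barcodes, and the mgR library 28215539 UMIs in 3802 barcodes. Filters kept 875 WT cells with a median of 5033 UMIs and 3438 mgR cells with a median of 7370 UMIs. Of the kept barcodes, 0 were shared between the libraries. In fibroblasts, Fbn1 stood at 171 CPM (UMIs per 1000000 UMIs of the same cells) in WT and 136 CPM in mgR, a ratio of 0.795 (0.695 to 0.912). Xist UMIs without Y-linked UMIs were found in 28.1% of the WT and 60.8% of the mgR library, and Y-linked UMIs without Xist in 38.5% and 21.1%. Both sets of cells were thus present in both libraries in unequal shares, although the methods of the study name male mice for its comparisons. Cell types were assigned by marker UMIs, and a cell that met more than 1 rule was left out of every type. This gave 220 WT and 1516 mgR macrophages, 322 and 876 fibroblasts, 29 and 147 endothelial cells, 30 and 73 dendritic cells and 89 and 148 T cells. A further 147 WT and 301 mgR cells met no rule. All 7 further markers of macrophages and of fibroblasts were present in their type in both libraries. The dendritic cells, chosen by Cd209a, also held Ccr7 in 73.3% of WT and 72.6% of mgR cells, and Clec9a was at 0 UMIs.

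Interferon-stimulated genes were most abundant in macrophages among the 5 cell types in both libraries. In macrophages the 37 members summed to 4481 CPM in WT and 2839 CPM in mgR, a ratio of mgR to WT of 0.634 (0.617 to 0.651). Fibroblasts were level, at 1344 and 1353 CPM (ratio 1.01, 0.961 to 1.05). T cells were higher in mgR, at 662 and 1256 CPM (1.90, 1.65 to 2.18), as were the cells that met no rule, at 849 and 1893 CPM (2.23, 2.01 to 2.48). Dendritic cells stood at 837 and 942 CPM, with an interval of the ratio that included no difference (1.13, 0.966 to 1.32). Endothelial cells stood at 3606 and 989 CPM, but a single WT cell held 352 of the 424 member UMIs, and without it the values were 643 and 989 CPM (1.54, 1.21 to 1.99). Markers of other types moved with the endothelial values, over all endothelial cells. Dendritic cell markers, 2 of 9 present in WT (H2-Ab1 and Cd74) and 8 of 9 in mgR (Xcr1 at 0), summed to 136 and 829 CPM. In WT dendritic cells these 2 class II presentation genes stood at 13155 and 28524 of the list's 43044 CPM. The part of these genes in the sums of other cell types was not counted, so the list is not read as dendritic cell RNA. B cell markers were at 0 in WT and summed to 100.1 CPM in mgR with 4 of 4 present, and plasmacytoid dendritic cell markers were at 0 in WT and summed to 71.8 CPM with 5 of 5 present. Their part was not tested. Nearly every macrophage held a member UMI: 4 of 220 WT and 14 of 1516 mgR macrophages had none. The UMIs were unevenly spread, and the 10 richest macrophages held 36.0% of member UMIs in WT and 8.68% in the larger mgR population. For the core set of 13 type I genes described below, 1 WT macrophage held 281 of 1723 UMIs. In mgR the highest macrophage held 428 of 8256.

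**Figure D1:**
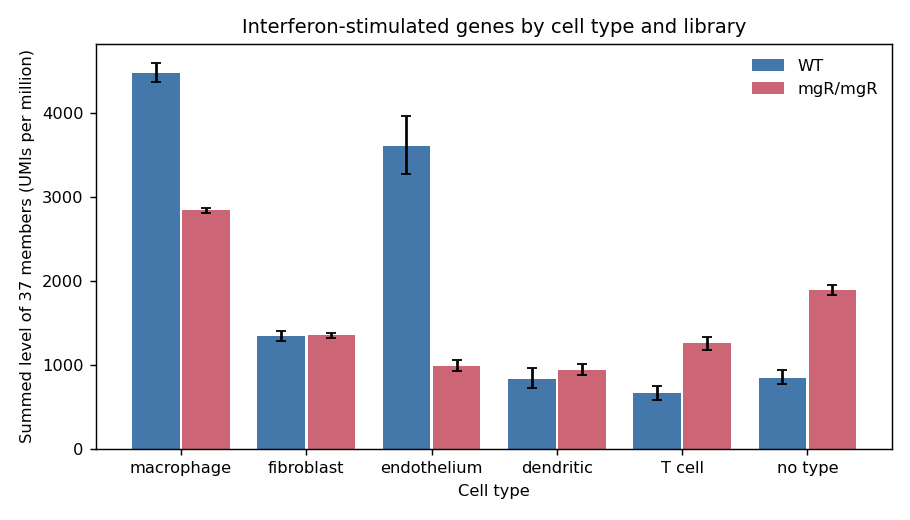
Summed level of the 37 members in CPM (vertical axis) for each cell type, with bars for the WT and the mgR/mgR library and error bars for the exact 95% Poisson interval, which covers counting error only. Macrophages were lower and T cells and cells of no type were higher in mgR, and the WT endothelial bar rests on 1 cell that held 352 of 424 member UMIs.

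In macrophages, 36 members had at least 50 UMIs over both libraries, the floor used for all counts, and Ifi44 did not. Of these, 13 were at least 1.5-fold lower in mgR (36.1%), against 6.37% of the 9311 genes past the floor, and 3 were at least 1.5-fold higher (8.33%), against 15.7% of genes. Their median log2 ratio was -0.12, beside 0.12 over all genes. The lower members were the ligand, the Ifit genes and other early antiviral effectors, Isg15 with Usp18, Gbp5 and Cxcl10. The higher members were Cxcl9, Gbp7 and Igtp. The floor applied to the sum of both libraries, and these passed it mainly through mgR. They had 13, 49 and 15 UMIs in WT and 697, 818 and 243 in mgR. The share of higher members is thus partly set by the floor and is not support for a direction. The list of digestion-responsive stress genes was also lower in mgR macrophages, at 7607 CPM in WT and 5719 CPM in mgR (0.752, 0.737 to 0.767), and its part in these differences was not tested. The 9 dendritic cell markers were present in macrophages of both libraries and summed to 18461 CPM in WT and 9845 CPM in mgR. The list includes H2-Ab1 and Cd74, whose part in this sum was not counted. The 4 red cell markers summed to 194 and 1182 CPM. Of 4 B cell markers, Cd79a, Ms4a1 and Igkc were at 0 in WT and none in mgR, and they summed to 7.83 and 81.3 CPM. The 4 monocyte markers (Ly6c2, Plac8, Chil3 and Ace) were all at 0 in WT and all present in mgR, where they summed to 42.5 CPM. Neutrophil markers, 4 of 5 present in WT (Cxcr2 at 0) and 5 of 5 in mgR, summed to 15.7 and 103 CPM. The part of these markers was not tested. Scaling by the median of gene ratios, which lay 0.12 above 0 on the log2 scale, gave a summed ratio of 0.581.

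**Figure D2:**
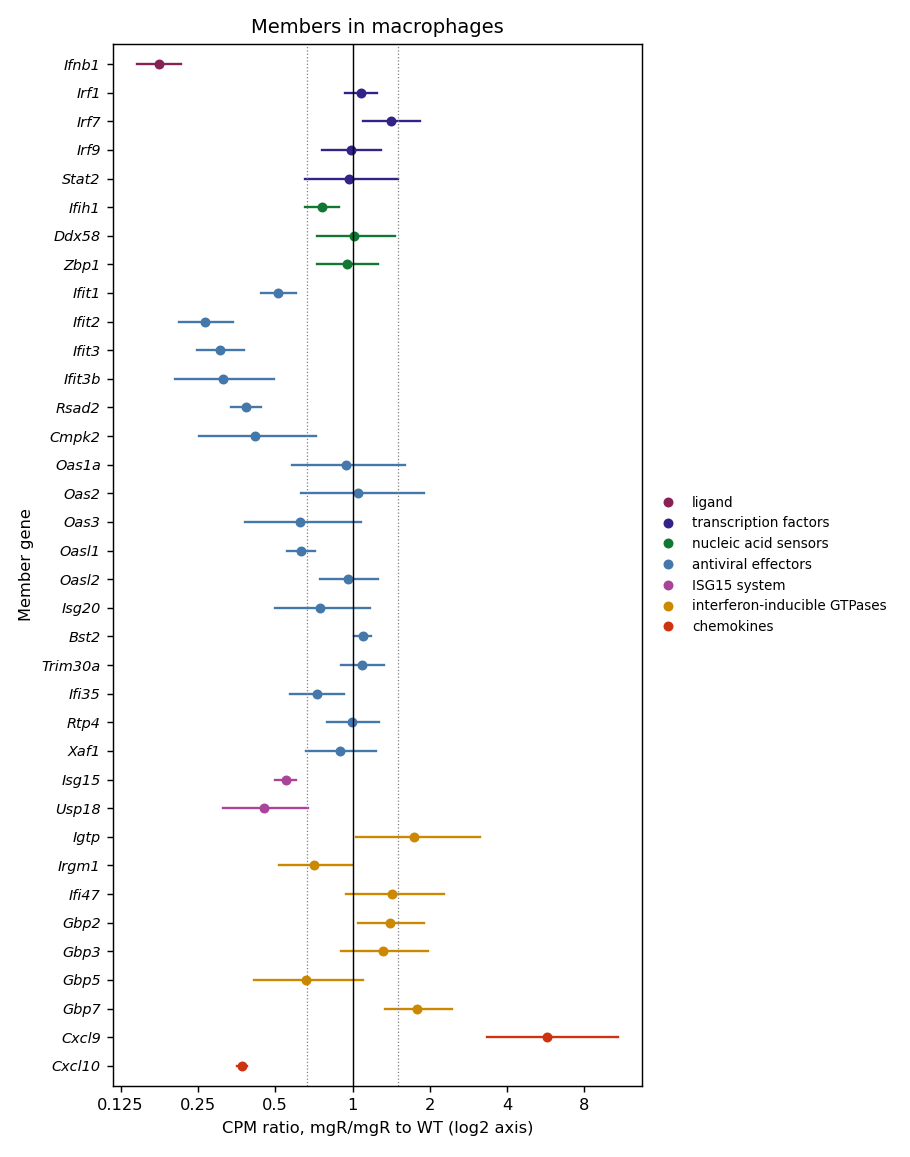
CPM ratio of mgR/mgR to WT in macrophages (horizontal log2 axis) for the 36 members past the floor, coloured by role. Points are ratios, lines are exact 95% intervals of counting error, the solid line is a ratio of 1 and the dotted lines mark 1.5-fold. Ifnb1 had the lowest ratio at 0.177 and Cxcl9 the highest at 5.73.

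Ifnb1, which encodes interferon beta, lies on chromosome 4 from 88522025 to 88522774 on the minus strand of GRCm38. It gave 170 UMIs in WT macrophages and 281 UMIs in the much larger mgR population, or 121 and 21.4 CPM. The ratio was 0.177 (0.145 to 0.215), the lowest of any member there. Its UMIs lay in few cells. A UMI was found in 23 of 220 WT macrophages (10.5%, 6.74 to 15.3) and 70 of 1516 mgR macrophages (4.62%, 3.62 to 5.80). After every cell was thinned to 2000 UMIs, the shares were 9.81% (6.18 to 14.6) of 214 cells and 2.28% (1.58 to 3.17) of 1492 cells. The 5 WT cells with the most Ifnb1 held 39, 32, 25, 14 and 8 UMIs and 69.4% of the total, and the 5 mgR cells held 65, 21, 13, 12 and 10 UMIs and 43.1%. Fibroblasts, endothelial cells and T cells held 0 Ifnb1 UMIs in both libraries, which allows at most 1.78 CPM in WT and 0.488 CPM in mgR fibroblasts, whose median depths were 5182 and 6724.5 UMIs against 5998.5 and 8274 in macrophages. Among dendritic cells, 1 WT cell held 4 UMIs. Ifnb1 UMIs were thus found in a minority of macrophages, and in a smaller share of them in mgR.

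The transcription factors of the pathway differed less. Irf1, a factor induced by either type of interferon, had 213 UMIs in WT and 2153 UMIs in mgR macrophages, or 152 and 164 CPM (1.08, 0.938 to 1.25). Irf7, which amplifies type I interferon transcription, stood at 47.7 CPM in WT and 67.3 CPM in mgR (1.41, 1.10 to 1.84), short of 1.5-fold with an interval above 1. Irf9 (0.988, 0.764 to 1.297) and Stat2 (0.969, 0.650 to 1.501), the DNA-binding and activating partners of the ISRE complex, were close to level. Their sum was 265 CPM in WT and 295 CPM in mgR (1.12, 1.002 to 1.24). None of the 4 factors passed 1.5-fold in either direction.

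Among nucleic acid sensors, Ifih1, which encodes the long double-stranded RNA sensor MDA5, gave 190 UMIs in WT and 1348 UMIs in mgR macrophages. Its levels were 135 and 103 CPM (0.758, 0.651 to 0.887). Ddx58, which encodes RIG-I, was level at 27.1 and 27.5 CPM (1.01, 0.725 to 1.46). Zbp1, a sensor of Z-form nucleic acid, was also near level (0.9495, 0.729 to 1.26). The ratio of Ddx58 was 2.20 (0.998 to 6.05) within cells with Xist UMIs alone, on 6 WT and 260 mgR UMIs. Where cells held Y-linked UMIs alone, it was 0.573 (0.364 to 0.925) on 28 and 68 UMIs, and the difference was not tested.

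The antiviral effectors held 8 of the 13 lower members in macrophages and none of the higher ones. The Ifit genes encode proteins that bind foreign RNA and stall its translation, and they sit together on chromosome 19, from 34550694 (Ifit2) to 34650009 (Ifit1). Ifit1 gave 205 UMIs in WT and 986 in mgR, or 146 and 75.0 CPM (0.514, 0.442 to 0.600). Ifit2 gave 98 and 245 UMIs, or 69.8 and 18.6 CPM (0.267, 0.210 to 0.341). Ifit3 gave 122 and 348 UMIs, or 86.9 and 26.5 CPM (0.305, 0.247 to 0.378). All 4 Ifit genes were lower in mgR, the least abundant being Ifit3b (0.313, 0.203 to 0.495), a close copy of Ifit3, so that reads shared between these copies could be split by the counting. Rsad2, which encodes viperin, an enzyme that makes a chain-terminating nucleotide, stood at 211 CPM in WT and 81.0 CPM in mgR (0.384, 0.338 to 0.439). Cmpk2, its neighbour on chromosome 12 and the kinase that supplies its substrate, stood at 14.2 and 5.94 CPM (0.417, 0.252 to 0.719).

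The remaining effectors spread on both sides of level. Oasl1, an oligoadenylate synthetase-like inhibitor of Irf7 translation, was lower at 202 and 127 CPM (0.629, 0.555 to 0.716). Oas3, an RNA-activated synthetase, was past 1.5-fold lower on 19 and 111 UMIs, with an interval that included 1 (0.624, 0.381 to 1.08). Oas1a (0.939), Oas2 (1.06) and Oasl2 (0.963) were near level. Bst2, which encodes tetherin, a membrane anchor that holds budding virus, was the most abundant effector, at 525 CPM in WT and 576 CPM in mgR (1.10, 1.02 to 1.18). After thinning, 48.1% of WT and 59.2% of mgR macrophages held a Bst2 UMI, beside 27.1% and 33.7% of fibroblasts. Trim30a (1.09), Rtp4 (0.997) and Xaf1 (0.896) lay within 1.5-fold, as did Ifi35 (0.725, 0.571 to 0.930) and the exonuclease gene Isg20 (0.748, 0.498 to 1.16). Low ratios were thus concentrated in the Ifit, Rsad2 and Cmpk2 genes and did not extend to the most abundant effector.

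Isg15, a ubiquitin-like protein that is joined to newly made proteins, is encoded on chromosome 4 from 156199424 to 156200818. It gave 527 UMIs in WT and 2707 UMIs in mgR macrophages, or 375 and 206 CPM (0.549, 0.4997 to 0.604). Usp18, the protease that removes Isg15 and dampens the type I receptor, stood at 25.6 and 11.6 CPM (0.451, 0.312 to 0.668). Both members of this pair were past 1.5-fold lower, but for Usp18 this did not hold in every set of cells. Its ratio was 1.004 after thinning, and 0.994 (0.573 to 1.86) on 14 and 142 UMIs among cells without an Ifnb1 UMI.

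The interferon-inducible GTPases, which attack the membranes around intracellular pathogens, summed to a higher level in mgR. Their sum was 167 CPM in WT and 216 CPM in mgR macrophages (1.29, 1.13 to 1.48). Gbp7 gave 49 UMIs in WT and 818 in mgR, or 34.9 and 62.2 CPM (1.78, 1.34 to 2.43). Igtp gave 15 and 243 UMIs, or 10.7 and 18.5 CPM (1.73, 1.03 to 3.14). Gbp2 (1.40, 1.05 to 1.91), Ifi47 (1.43, 0.943 to 2.26) and Gbp3 (1.31, 0.902 to 1.97) were above 1 without reaching 1.5-fold. Irgm1 (0.710, 0.518 to 0.994) and Gbp5 (0.656, 0.412 to 1.10) were below 1, and Gbp5 was the group's member counted as lower. Within cells with Xist UMIs alone, the ratios were 1.23 (0.809 to 1.95) for Gbp7, 0.974 for Gbp2 and 1.03 for Gbp3. Within cells with Y-linked UMIs alone, they were 2.89 (1.74 to 5.16), 2.19 and 1.92. Igtp (2.57 and 1.92) and Ifi47 (1.78 and 1.42) were above 1 in both sets, on few WT UMIs, and Irgm1 and Gbp5 were below 1 in both. The difference between the sets was not tested. Igtp, Ifi47 and Gbp7, as well as Irf9 and Rtp4, overlap another gene on the same strand, and the counting could split reads between them.

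The pair of chemokines went in opposite directions. Cxcl10, which attracts T cells through Cxcr3, was the most abundant member in macrophages, with 2380 UMIs in WT and 8268 UMIs in mgR, or 1695 and 629 CPM (0.371, 0.355 to 0.389). Thinned cells with a Cxcl10 UMI were 47.2% (40.4 to 54.1) of WT and 30.2% (27.9 to 32.6) of mgR macrophages, beside 8.22% and 5.58% of fibroblasts. The Cxcl10 ratio was 0.367 within cells with Xist UMIs alone and 0.393 within cells with Y-linked UMIs alone. Cxcl10 made up 37.8% of all member UMIs in WT macrophages, and without it the summed ratio was 0.793 (0.767 to 0.820). Cxcl9, a ligand of the same receptor that lies close to Cxcl10 on chromosome 5, gave 13 UMIs in 4 WT cells and 697 UMIs in 47 mgR cells, or 9.26 and 53.0 CPM (5.73, 3.33 to 10.8). In mgR, 15 macrophages with at least 5 UMIs held 91.5% of them, and 1 cell held 144. Without the 5% of cells richest in member UMIs in each library the Cxcl9 ratio was 0.969, so the higher level rested on those cells. The Cxcl9 ratio was 1.88 (1.07 to 3.67) within cells with Xist UMIs alone, and in the cells that had only Y-linked UMIs, where WT gave 1 UMI, it was 39.4 (6.98 to 1566).

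Some members of the type I set were found together in the same macrophages more often than independent detection gives, and others were not. Among thinned WT macrophages, 13 of the 21 cells with Ifnb1 also held Ifit1, against 25 of all 214, and in mgR 13 of 34 did, against 90 of 1492. Cxcl10 was found in 19 of the 21 WT cells with Ifnb1 and in 34 of the 34 mgR cells, against 101 of 214 and 451 of 1492 overall. Bst2 and Ifit1 were found together in 14 WT and 54 mgR cells, close to the 12 and 53.3 cells that independent detection gives. Irf1 and Ifit1 were together in 5 WT cells against 5.84 and in 30 mgR cells against 18.9. Irf7 and Isg15 were together in 5 WT cells against 4.06 and in 55 mgR cells against 32.2. Cxcl9 kept other company: of 25 mgR cells with Cxcl9, 10 held Gbp2, against 106 of 1492, while 9 held Cxcl10, against 451 of 1492. These are cells of 1 library each and are given as a description. A core set of 13 type I genes (the Ifit genes, Isg15, Rsad2, Cmpk2, Usp18, Oasl1, Oasl2, Oas2, Oas3 and Ifi44) reached at least 5 UMIs per thinned cell in 20 of 214 WT macrophages (9.35%, 5.80 to 14.1) and 89 of 1492 mgR macrophages (5.97%, 4.82 to 7.29). These intervals overlapped. The limit is a point on a range and not a cell type: 12 WT and 50 mgR cells stood at 5 or 4 UMIs. The same range held 7 of 292 WT fibroblasts (2.40%) and 38 of 843 mgR fibroblasts (4.51%).

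**Figure D3:**
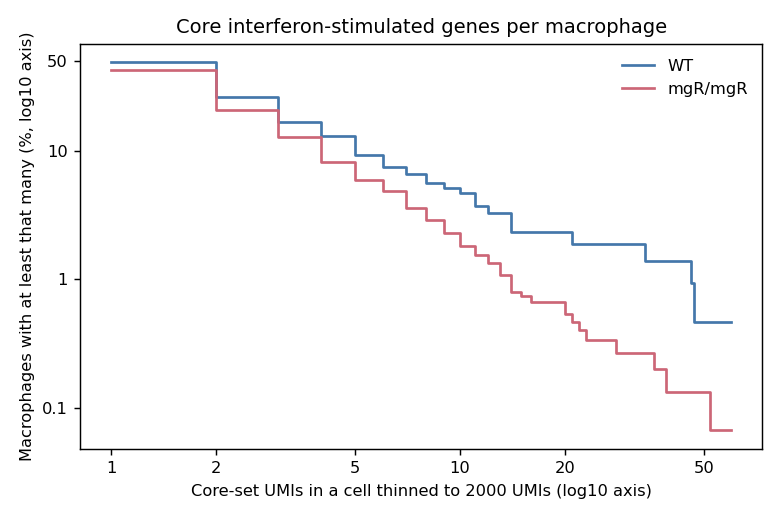
Share of thinned macrophages (vertical log10 axis, percent) that held at least a given number of core-set UMIs (horizontal log10 axis), with a line for WT (214 cells) and for mgR/mgR (1492 cells). At 5 UMIs the lines stand at 9.35% and 5.97%, and the WT line stays above the mgR line up to 60 UMIs, the last count drawn.

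Macrophages were also divided by the presence of an Ifnb1 UMI, a description chosen after the values were seen. The core set stood higher in cells with Ifnb1 in both libraries. In the 23 WT cells with Ifnb1 the core set stood at 5612 CPM, and in the 197 without at 607 CPM. In mgR the values were 2978 CPM in 70 cells and 518 CPM in 1446 cells. Cells with Ifnb1 held 977 core-set UMIs and cells without 746 in WT, whereas in mgR they held 1748 and 6508, so that most of the core set lay outside the cells with Ifnb1 in mgR. Before thinning, 38 WT and 196 mgR macrophages held at least 10 core-set UMIs, in both libraries more than the 23 and 70 with Ifnb1. The ratio of mgR to WT for the core set was 0.531 (0.490 to 0.574) among cells with Ifnb1 and 0.855 (0.792 to 0.923) among cells without. In cells with Ifnb1, Rsad2 stood at 1281 CPM in WT and 433 CPM in mgR, and in cells without at 59.4 and 64.6 CPM. Ifit3 stood at 517 and 147 CPM with Ifnb1, and at 26.0 and 20.9 CPM without. The 23 WT cells held 75.3% of Rsad2 and 73.8% of Ifit3 UMIs of WT macrophages, and the 70 mgR cells held 23.8% and 24.7% of those in mgR.

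Cxcl10 and the GTPases did not follow the core set. Cxcl10 was lower in mgR in both sets, at 5319 and 3341 CPM with Ifnb1 (0.628, 0.581 to 0.680) and at 1182 and 502 CPM without (0.425, 0.401 to 0.450). The GTPases were lower in mgR among cells with Ifnb1 (0.530, 0.392 to 0.720) and higher among cells without (1.62, 1.38 to 1.91). Gbp2 stood at 132 CPM in WT and 37.5 CPM in mgR with Ifnb1, and at 22.0 and 50.4 CPM without (2.30, 1.56 to 3.51). Irf7 was likewise higher in mgR cells without Ifnb1, at 36.6 and 65.5 CPM (1.79, 1.33 to 2.47). The stress list was near level with Ifnb1 (0.982, 0.922 to 1.05) and lower in mgR without (0.738, 0.723 to 0.755). Median depth was 7681 and 5902 UMIs with and without Ifnb1 in WT, and 7768.5 and 8288 UMIs in mgR.

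**Figure D4:**
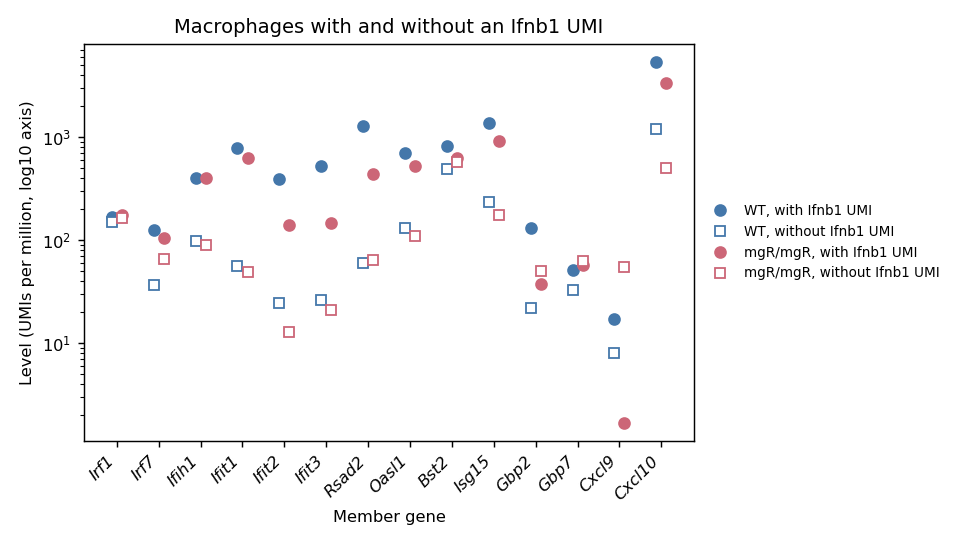
Level in CPM (vertical log10 axis) of 14 members in macrophages with an Ifnb1 UMI (filled circles, 23 WT and 70 mgR/mgR cells) and without one (open squares, 197 and 1446 cells). Rsad2 stands at 1281 and 433 CPM in cells with Ifnb1 and at 59.4 and 64.6 CPM in cells without, while Gbp2 and Cxcl9 are higher in mgR cells without Ifnb1.

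In fibroblasts, 32 members passed the floor and Ifnb1 was at 0 UMIs. Of the 32, 4 were at least 1.5-fold higher in mgR (12.5%), against 6.53% of the 9435 genes past the floor, and 5 were at least 1.5-fold lower (15.6%), against 7.76% of genes. The floor applied to the sum of both libraries. The higher members Cxcl9, Usp18, Ifi44 and Isg20 passed it mainly through mgR, with 0, 8, 12 and 38 UMIs in WT. In mgR they had 150, 47, 70 and 219 UMIs. The share of higher members is thus partly set by the floor and is not support for a direction. The median log2 ratio was -0.04 for the members and -0.04 for all genes. The lower members were Rsad2, Ifit3b, Gbp5, Ifit3 and Irgm1. Rsad2 gave 46 UMIs in WT and 55 UMIs in mgR, or 27.2 and 8.95 CPM (0.329, 0.218 to 0.497). Ifit3 gave 178 and 330 UMIs, or 105 and 53.7 CPM (0.509, 0.423 to 0.615), and Ifit3b followed it (0.448, 0.326 to 0.620). Gbp5 stood at 17.2 and 7.81 CPM (0.455, 0.281 to 0.748) and Irgm1 at 21.3 and 13.3 CPM (0.626, 0.418 to 0.954). These ratios rested on few cells: 1 WT fibroblast held 73 Ifit3 UMIs, 10 cells held 78.1% of Ifit3, and 8 held all of Rsad2. Without the 5% of cells richest in member UMIs the ratios were 1.04 for Ifit3 and 1.57 for Rsad2. Leaving out Scrublet-marked cells gave 7 higher and 2 lower members and a summed ratio of 1.22.

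**Figure D5:**
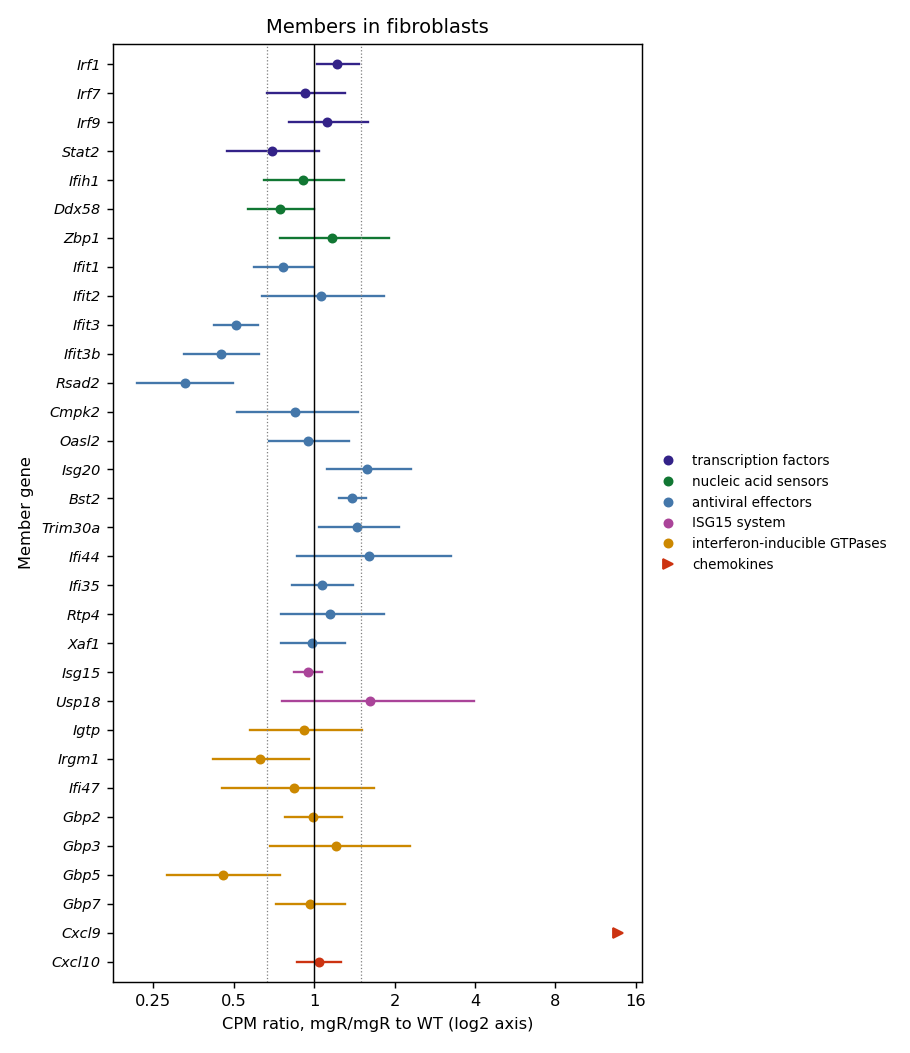
CPM ratio of mgR/mgR to WT in fibroblasts (horizontal log2 axis) for the 32 members past the floor, coloured by role, with exact 95% intervals of counting error, a solid line at 1 and dotted lines at 1.5-fold. The triangle marks the lower bound for Cxcl9, which had 0 UMIs in WT, and Rsad2 had the lowest ratio at 0.329.

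The higher members in fibroblasts were Cxcl9, Usp18, Ifi44 and Isg20. Cxcl9 was at 0 UMIs in WT and 150 UMIs in mgR, at least 13.7-fold higher against the 3 UMIs that a count of 0 allows, but 110 of these UMIs lay in 1 cell and all of them in 5. Isg20 stood at 22.5 and 35.6 CPM (1.58, 1.12 to 2.30), a gene also present at 318 and 236 CPM in barcodes with under 200 genes, where 95.9% and 96.5% of UMIs were haemoglobin. Usp18 (1.61, 0.756 to 3.96) and Ifi44 (1.60, 0.862 to 3.25) had few UMIs and intervals that included 1. Just short of 1.5-fold, Bst2 stood at 205 and 284 CPM (1.39, 1.24 to 1.56) and Trim30a at 24.9 and 36.1 CPM (1.45, 1.04 to 2.07). Isg15 (0.946, 0.841 to 1.07), Cxcl10 (1.04, 0.860 to 1.26) and Gbp2 (0.989, 0.776 to 1.27) were near level, and Irf1 was slightly higher (1.22, 1.02 to 1.47). The stress list was near level in fibroblasts (1.03, 1.01 to 1.06). Macrophage markers, 5 of 7 present in WT (Adgre1 and Fcgr1 at 0) and 7 of 7 in mgR, summed to 15.99 and 66.6 CPM in fibroblasts. Endothelial markers, 6 of 8 present in WT (Tie1 and Vwf at 0) and 8 of 8 in mgR, summed to 18.4 and 54.8 CPM. Their part was not tested.

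In T cells, 8 members passed the floor and 6 of them were at least 1.5-fold higher in mgR (75.0%), against 7.83% of the 3373 genes past the floor, while 0 were lower, against 11.6% of genes. The floor applied to the sum of both libraries, and all 6 higher members passed it mainly through mgR. Cxcl10, Trim30a and Ifi35 had 7, 8 and 13 UMIs in WT and 55, 43 and 48 in mgR. Irf7, Isg15 and Bst2 had 14, 26 and 37 UMIs in WT and 79, 163 and 192 in mgR. The share of higher members is thus partly set by the floor and is not support for a direction. Isg15 gave 26 UMIs in WT and 163 UMIs in mgR, or 66.7 and 191 CPM (2.86, 1.89 to 4.52). The ratio of Cxcl10 was 3.59 (1.63 to 9.34), and Irf7 gave 14 and 79 UMIs (2.58, 1.45 to 4.93). Trim30a (2.46, 1.14 to 6.05), Bst2 (2.37, 1.66 to 3.47) and Ifi35 (1.69, 0.899 to 3.39) completed the higher members. Isg20 (0.990, 0.553 to 1.84) and Igtp (0.817, 0.453 to 1.52) were not past 1.5-fold. Other markers moved with these values. B cell markers, with Cd79a, Ms4a1 and Igkc at 0 in WT and 4 of 4 present in mgR, summed to 20.5 and 872 CPM. Dendritic cell markers, 6 of 9 present in WT and 7 of 9 in mgR, summed to 416 and 1970 CPM, with the part of H2-Ab1 and Cd74 not counted. Macrophage markers, 5 of 7 and 7 of 7 present, summed to 82.2 and 145 CPM, and the 4 red cell markers to 13964 and 2419 CPM. The gamma-delta receptor gene Trdc was found in 59.6% of WT and 24.3% of mgR T cells. In T cells without a UMI of a B cell or macrophage marker, 74 in WT and 109 in mgR, an alternative added after the values were seen, the summed ratio was 1.76 (1.51 to 2.06), with Isg15 at 2.84 (1.74 to 4.84). The 10 mgR cells richest in member UMIs held 49.9% of them, and without the top 5% of cells the ratio was 1.31.

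Endothelial and dendritic cells gave fewer usable values. In endothelium, 8 members passed the floor, with 5 at least 1.5-fold lower in mgR, against 11.1% of 3312 genes, and 1 higher, against 17.4% of genes. Of the lower members, Cxcl9 and Cxcl10 passed the floor only through WT, with 60 and 81 UMIs there and 0 and 3 in mgR. These counts are thus partly set by the floor and are not support for a direction. The WT endothelial cell that set these values held 5550 UMIs, among them 78 of the 81 Cxcl10 UMIs of its type, 60 of 60 Cxcl9, 38 of 39 Gbp2, 28 of 34 Isg15, 26 of 26 Ifit3 and 18 of 19 Gbp5. It carried both type I genes and targets of interferon gamma at once. Outside this cell, WT endothelium held 3 Cxcl10 UMIs, and the mgR endothelium held 3 Cxcl10 and 0 Cxcl9 UMIs. The lowest ratios were those of Cxcl10, Cxcl9 and Gbp2, all set by that cell. Bst2 was the higher member, at 145 and 312 CPM (2.16, 1.32 to 3.76), in the same cells whose dendritic, B and plasmacytoid dendritic cell markers were higher in mgR, followed by Ifi35 (1.25, 0.496 to 4.02) and Irf9 (0.754, 0.366 to 1.75). In dendritic cells 4 members passed the floor, and no count was made of so few. Isg15 stood at 101 and 182 CPM (1.80, 1.18 to 2.86), Cxcl10 at 101 and 203 CPM (2.02, 1.33 to 3.19), Bst2 at 236 and 158 CPM (0.667, 0.487 to 0.922) and Ifi35 at 58.1 and 44.5 CPM (0.766, 0.407 to 1.51). Cxcl10 was found in 6 WT and 15 mgR dendritic cells, with 96.9% of it in 10 mgR cells.

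Taking the summed CPM of the cell types side by side, Isg15 was lower in mgR macrophages, near level in fibroblasts and higher in T cells and dendritic cells. Cxcl10 had the same order. In dendritic cells the higher sums were not seen in the share of thinned cells with a UMI. Isg15 was found in 13.3% of 30 WT and 15.1% of 73 mgR dendritic cells, and Cxcl10 in 6.67% and 6.85%. These shares rest on few cells. Bst2 lay at or above level in macrophages, fibroblasts, endothelium and T cells and below level in dendritic cells. Cxcl9 was almost confined to a few cells of each library: 48.6% of its mgR UMIs were in macrophages, 21.3% in cells of no type, 17.0% in cells that met more than 1 rule and 10.5% in fibroblasts, while 68.2% of its WT UMIs were in the endothelial cell described above. These differences between cell types were not tested.

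The rest of the pathway gave context for the ligand and its targets. Interferon gamma (Ifng) had 0 UMIs in macrophages and fibroblasts of both libraries, 3 UMIs in WT and 8 in mgR T cells, and 0 in WT and 3 in mgR endothelial cells. Ifna2, Ifna4, Ifnl2 and Ifnl3 had 0 UMIs in the 5 cell types, and Ifnk had 2 UMIs in WT and 1 in mgR macrophages. The receptors were present and near level in macrophages: Ifnar1 (1.11, 0.892 to 1.39), Ifnar2 (0.995, 0.882 to 1.13), Ifngr1 (0.985, 0.879 to 1.11) and Ifngr2 (1.15, 1.01 to 1.32). Of the 9 receptor and kinase genes past the floor there, Jak2, the kinase of the interferon gamma receptor, was the one past 1.5-fold, at 64.8 and 36.5 CPM (0.564, 0.450 to 0.713). Among all genes past the floor in macrophages, 15.7% were at least 1.5-fold higher and 6.37% lower. In T cells Ifnar1 was higher (1.67, 1.06 to 2.75). In fibroblasts Ifnar1 was lower (0.621, 0.472 to 0.823).

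Other inducible genes outside the members were mixed. In macrophages, 7 of 45 past the floor were at least 1.5-fold higher and 5 lower, beside 15.7% and 6.37% of all genes past the floor. The higher count was close to the share of all genes. The higher ones included Ly6a, a membrane protein induced by either interferon, at 7.83 and 46.2 CPM (5.90, 3.27 to 11.9), the peptide transporter gene Tap1 at 19.9 and 41.7 CPM (2.09, 1.43 to 3.18) and Cd274, which encodes PD-L1 (2.21, 1.05 to 5.60). The lower ones were Oas1g, Phf11d, Phf11b, Cd69 and Ciita, with Ciita, the switch for class II genes, at 27.8 and 15.1 CPM (0.545, 0.385 to 0.790). In fibroblasts, 7 of 36 were higher and 4 lower, beside 6.53% and 7.76% of all genes past the floor. Ly6a stood there at 181 and 505 CPM (2.80, 2.49 to 3.16). In T cells, 8 of 22 were higher and 1 was lower, beside 7.83% and 11.6% of all genes past the floor. Ifi27l2a stood there at 236 and 556 CPM (2.35, 1.88 to 2.98) and the immunoproteasome gene Psmb8 at 400 and 686 CPM (1.71, 1.43 to 2.06). The floor again applied to the sum of both libraries, so these counts are not support for a direction. Of 10 sensing genes found, 9 passed the floor in macrophages, where 15.7% of all genes were at least 1.5-fold higher. Mavs, the adaptor of RIG-I and MDA5, was past 1.5-fold on 4 and 92 UMIs (2.46, 0.928 to 9.21). It passed the floor only through mgR. Of 7 genes that restrain the response, 6 passed the floor in macrophages and 0 passed 1.5-fold. In T cells 5 of the 7 passed the floor and 1 was lower, beside 11.6% of all genes. This was Socs1, at 139 and 59.8 CPM (0.431, 0.288 to 0.645).

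Barcodes with under 200 genes, 192 in WT and 253 in mgR, were left out of every cell type. Haemoglobin made up 95.9% and 96.5% of their UMIs, so they held mainly red cell RNA and gave no measure of free RNA, whose level was not measured here. They held 1 and 3 Cxcl10 UMIs, 1 and 0 Ifit1 UMIs and 0 Ifnb1 and Irf1 UMIs. Isg15 stood at 97.9 and 54.8 CPM in them.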

How the data were processed

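Single cells of mitral valve leaflets were captured with the 10x Genomics 3′ version 3 chemistry, 1 library per genotype. Per the labels, the authors obtained the deposited counts (whole UMI counts per gene and barcode, not normalized) with Cell Ranger 7.1.0 and mm10. Which annotation was used, and whether intronic reads were counted, was not given in the sources used here. The mapping of UMIs to overlapping or near-identical genes therefore could not be examined.

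The members, lists and rules were chosen with earlier results of these data known. Cells with 200 to 5000 genes and at most 10% mitochondrial UMIs were kept. Macrophages had at least 10 UMIs of C1qa, C1qb and C1qc together, fibroblasts 10 of Col1a2, Col3a1 and Dcn, endothelial cells 2 of Pecam1 and Cdh5, dendritic cells 2 of Cd209a, and T cells 2 of Cd3e, Cd3d and Cd3g. A cell that met more than 1 rule, 38 in WT and 377 in mgR, was left out of all types. The rules of fibroblasts and endothelium were met together by 29 WT and 310 mgR cells, so the endothelium here is what remained. UMIs were summed per library and type and given per 1000000 (CPM). Sums have exact Poisson, shares exact Clopper-Pearson and ratios exact conditional binomial intervals at 95%, all for counting error only. Cells are not replicates, so no test was made. Counts of members past 1.5-fold used a floor of 50 UMIs over both libraries and were made where at least 8 members passed it. A library with under 3 UMIs was set to 3 UMIs, which makes the ratio a bound. Named were all members past the floor in macrophages and fibroblasts that the roles called for, always with the 5 highest and 5 lowest ratios, and in the other types the 3 highest and 3 lowest. Ligands of the pathway were named whatever their value, as were the receptors in macrophages. Other pathway genes were named only when past 1.5-fold, as examples, and not all that passed are named. Shares of cells across depths came from cells thinned to 2000 UMIs. Doublets were not removed. Scrublet, run through scanpy 1.11.5, marked 0.800% of WT (7 cells) and 1.48% of mgR (51 cells), and their removal was an alternative. Promoter windows came from RefSeq on GRCm38.p6. Intervals and folds were tested on simulated data.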

Additional observations from a re-analysis of the deposited data

Results flagged for a closer look

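Ddx58 in macrophages differed in direction between the cells divided by sex-linked UMIs: the ratio of mgR to WT was 2.20 (0.998 to 6.05) among those with Xist UMIs but no Y-linked UMIs, on 6 WT UMIs, and 0.573 (0.364 to 0.925) among those with the reverse. The difference was not tested.

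Cells that met no rule of a cell type were outside the comparisons by type. Levels of 4 members that were higher there in mgR are given, while Cxcl10 was lower (0.459, 0.282 to 0.761). The share of all genes as far apart in these cells was not counted, and Gbp2 and Cxcl9 had 7 and 1 UMIs in WT. Irf7 stood at 94.3 CPM in mgR and 21.9 CPM in WT, and Isg15 at 321 CPM and 54.8 CPM. Gbp2 stood at 106 CPM in mgR and 15.4 CPM in WT, and Cxcl9 at 163 CPM and 2.19 CPM. These cells were 301 in mgR, with a median of 5256 UMIs, and 147 in WT, with a median of 2297 UMIs. At least 2 dendritic cell markers, which can be H2-Ab1 and Cd74 alone, were found in 56.1% of them in mgR and 32.7% in WT. At least 2 macrophage markers were found in 49.8% and 39.5%. At least 2 red cell markers were found in 8.31% in mgR and 29.9% in WT, and at least 2 melanocyte markers in 2.66% and 15.6%. Summed over these cells, B cell markers stood at 6582 CPM in mgR and 452 CPM in WT, neutrophil markers at 6593 and 19928 CPM, melanocyte markers at 570.0 and 4188 CPM and monocyte markers at 942 and 347 CPM. Cxcl9 lay in 24 of the mgR cells, and the 16 with at least 5 UMIs all held Cd74. The part of the makeup and depth of these cells in the values was not tested.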

How the results depend on the processing

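No paired analysis was possible because each genotype had 1 library. With no replicates, neither could any library be left out. In macrophages the summed ratio of 0.634 stayed below 1 under the alternatives run, at 0.676 thinned, 0.686 in cells with Xist UMIs alone, 0.677 as a mean of per-cell values, 0.734 without the 5% of cells richest in member UMIs, 0.581 scaled by the median of gene ratios and 0.793 without Cxcl10. The 3 higher members became 8 (thinned), 5 (Xist alone), 6 (Y-linked alone), 5 (per-cell mean) and 1 (fold of 2), and the 13 lower became 8 at a fold of 2. With Xist alone, the lower members Rsad2 (0.719), Oasl1 (0.756) and Ifit3b (0.762) were below 1 but not past 1.5-fold. With Y-linked alone they were past it (0.340, 0.523 and 0.216). The share of all genes past the fold is not given for the alternatives here and below, so these counts only describe the members. In fibroblasts the summed ratio was 1.22 without Scrublet-marked cells, 1.11 thinned, 1.105 with Xist alone, 0.846 with Y-linked alone, 1.13 as a per-cell mean, 1.18 without the richest 5% and 0.938 without Bst2. The 4 higher fibroblast members became 7 (no Scrublet-marked cells, Xist alone, per-cell mean), 2 (thinned, Y-linked alone, floor of 100 UMIs) and 1 (fold of 2). The 5 lower became 2 (no Scrublet-marked cells), 1 (thinned), 3 (per-cell mean, fold of 2) and 8 (no floor).

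In endothelium the summed ratio of 0.274 was 0.516 with cells of other rules kept, 0.322 with doubled markers, 0.313 as a per-cell mean and 0.196 without Bst2, and it turned to 1.505 with Xist alone, 2.30 with Y-linked alone and 1.196 without the richest 5%, sets that leave out or lack the 1 WT cell that held most member UMIs. Its higher count became 2 (other rules kept) and 0 (doubled markers, Y-linked alone), and its lower count 15 (other rules kept), 13 (floor of 20 UMIs), 1 (floor of 100), 28 (no floor) and 0 (thinned, Xist alone, Y-linked alone, richest 5% left out). The dendritic ratio was 1.397 thinned, 1.43 with Y-linked alone and 0.826 without the richest 5%. The T cell ratio was 1.53 with Xist alone, 3.19 with Y-linked alone and 1.31 without the richest 5%. Its 6 higher members became 2 (thinned, Y-linked alone, richest 5% left out, floor of 100), 3 (Xist alone), 10 (floor of 20) and 16 (no floor), with 8 lower without a floor.

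Single members turned direction as follows: in macrophages Oas3 (1.20, Xist alone), Usp18 (1.004, thinned) and Cxcl9 (0.969, richest 5% left out), and in fibroblasts Ifit3 (1.04) and Rsad2 (1.57) without the richest 5%, Ifi44 (0.397, Y-linked alone) and Gbp5 (1.386 thinned, 1.46 Xist alone). The cause was not tested. Over all comparisons, these included, 277 of 324 in macrophages and 233 of 287 in fibroblasts stayed within the interval of the ratio. The share of macrophages with at least 5 core-set UMIs was 28.2% in WT and 25.5% in mgR without thinning and 19.9% and 12.9% thinned to 4000 UMIs, and thinned to 2000 UMIs it was 16.8% and 12.7% at 3 UMIs and 4.67% and 1.81% at 10 UMIs. Depth limits the types with few cells: a count of 0 allows up to 25.5 CPM in WT endothelium against 0.228 CPM in mgR macrophages. The sets without the richest 5% and without cells of other markers were chosen after seeing the data.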
